A study of Oryza sativa with 239 samples.

Results

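Small heat shock proteins and HSP101 were followed here in rice leaves as a set of 10 genes chosen by identifier, out of 55986 identifiers in the deposited count table. Taken in the order in which the choice names its classes, 7 are cytosolic class I small heat shock genes, LOC_Os01g04360, LOC_Os01g04370, LOC_Os01g04380, LOC_Os03g15960, LOC_Os03g16020, LOC_Os03g16030 and LOC_Os03g16040. LOC_Os01g08860 is then the cytosolic class II gene, LOC_Os03g14180 the plastid gene and LOC_Os05g44340 HSP101. No table at hand annotates these identifiers, so only the classes are given, and their place is known only as the chromosome number that the identifier holds. All 10 genes passed the filter on low counts, among the 28297 genes of the table that did. The rule of the choice uses no measured value, although the genes were chosen with earlier results of these data known.

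Small heat shock proteins are chaperones that bind proteins as they unfold and keep them from clumping, without using ATP. HSP101 is an ATP-driven machine that pulls proteins back out of clumps, working with the HSP70 chaperones on material that small heat shock proteins hold. In plants both kinds of gene are switched on steeply by heat through heat stress transcription factors, and HSP101 is required for acquired heat tolerance in Arabidopsis and maize. The cytosolic classes I and II form separate oligomers, while the plastid form acts inside chloroplasts.

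The leaves came from 40 cultivars and lines of *Oryza sativa*, most of them numbered accessions of the World Rice Core collection (WRC), beside IR64, Koshihikari, KP and Dro1-NIL. Each was sampled on day 5 under moderate drought and under control irrigation, with 3 libraries a group, except for Dro1-NIL with 2 drought libraries. The youngest fully expanded leaf and the next older one were taken from seedlings grown singly in pots in a growth chamber, and the drought pots were drained while the control pots stayed irrigated. Dro1-NIL is taken to be IR64 with the KP allele of Dro1, a locus known for root growth angle, although the labels spell out neither name. The labels call the treatment moderate drought, whereas the treatment protocol speaks of a severe drought and rewatering, and the sample labels are followed. They do not state that each library is a separate plant, so p-values measure the spread between libraries, which may be technical in part. Because whole leaves were sequenced, fewer cells of a type and less RNA per cell cannot be told apart. The named leaf markers could not be looked up, so the tissue label was not checked against markers.

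Drought libraries had a median of 17.04 M (mega) assigned reads and control libraries 14.8 M. Drought libraries numbered 3 were shallower, at a median of 6.57 M. Levels are in CPM (read counts scaled to a common library size) over the 235 libraries of at least 1 M reads, which leaves out 4 drought libraries and 0 of the 120 control libraries, so that 4 drought groups (WRC02, WRC13, WRC28 and WRC47) rest on 2 libraries, as Dro1-NIL does. The tests used every library. In WRC09, 110 genes were read in 1 treatment only (59 in drought leaves and 51 in control leaves), against 0 in every other cultivar. WRC16 drought replicate 2 and WRC16 control replicate 3 held 121 genes of WRC15 at 55.6% and 46.5% of the WRC15 level, and WRC35 control replicate 3 held 78 genes of WRC36 at 54.1%. CPM is not divided by gene length, so levels are compared between cultivars and treatments and not between genes.

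HSP101 and the class II gene LOC_Os01g08860 each split the 40 cultivars into a high and a low set, and all 40 were on the same side in drought and in control leaves. LOC_Os01g08860 was high in KP, Koshihikari, WRC01, WRC22, WRC24, WRC46, WRC47, WRC48 and WRC50, and these 9 were among the 13 cultivars with low HSP101. Drought itself went with small rises of HSP101 and of the class I gene LOC_Os03g16040, by 1.17-fold and 1.26-fold in the fit over all cultivars. Both passed that fit, as did 44.4% of all genes tested. HSP101 did not pass without replicate 2, and LOC_Os03g16040 did not pass within replicate number 3 alone. 4 genes stood many times higher in 1 drought library of WRC44.

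HSP101 had cultivar means of 1.00 CPM (KP) to 16.1 CPM (IR64) in drought leaves, with a median of 11.8 CPM. In control leaves they ran from 0.743 CPM (KP) to 15.3 CPM (WRC25), with a median of 10.3 CPM. KP read 0.535, 1.82 and 0.646 CPM in its drought libraries, against 0.884, 0.464 and 0.882 CPM in its control libraries. IR64 read 18.95, 15.5 and 13.9 CPM in drought leaves, against 10.5, 9.68 and 10.8 CPM in control leaves. WRC25, with the highest control mean, read 11.5, 18.2 and 15.9 CPM in drought leaves, against 14.8, 18.6 and 12.7 CPM in control leaves. The drought and control libraries of IR64 did not overlap, whereas those of KP and WRC25 did.

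Between the 13 low and the 27 high cultivars lay a step in the order of means. In drought leaves it ran from 3.58 ± 0.504 CPM in WRC01 to 7.78 ± 2.03 CPM in WRC04 (SD, n = 3 each), a ratio of 2.17. In control leaves it ran from 2.74 ± 0.550 CPM in Koshihikari to 5.05 ± 1.55 CPM in WRC04 (SD, n = 3 each), a ratio of 1.85. The low cultivars besides the 9 named above were WRC42, WRC51, WRC55 and WRC57. WRC04 stood between the sets, since the next mean above it was 9.75 CPM in drought leaves and 9.16 CPM in control leaves, both in WRC16, which holds 1 library in each treatment with WRC15 genes. Cultivars next to each other in the order otherwise mostly did not differ beyond their spread: in 38 of 39 neighbouring pairs in drought leaves and 36 of 39 in control leaves the libraries overlapped. All 40 cultivars were on the same side of the step in both treatments.

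LOC_Os01g08860, the class II gene, had cultivar means of 0.0137 CPM (WRC19) to 21.6 CPM (WRC47) in drought leaves and of 0.0228 CPM (WRC23) to 21.7 CPM (WRC24) in control leaves. The medians were 0.370 CPM in drought leaves and 0.430 CPM in control leaves, near 5 reads a library. WRC24 read 17.5, 11.5 and 11.5 CPM in drought leaves, against 22.1, 24.7 and 18.5 CPM in control leaves. IR64 read 0.0473, 0 and 0 CPM in drought leaves, against 0.0829, 0.128 and 0.103 CPM in control leaves, which is 1 read in its drought libraries and 1 to 2 reads in each control library. A level of 0 reads allows up to 0.176 CPM in a drought library and 0.212 CPM in a control library of median depth, so the lowest cultivars cannot be ranked.

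The step of LOC_Os01g08860 was wider than that of HSP101. In control leaves the 9 high cultivars started at 11.7 CPM in WRC50, and the highest of the other 31 was WRC42 at 1.10 CPM, a ratio of 10.6. In drought leaves the 9 started at 11.2 CPM in KP, and the next was WRC44 at 3.07 CPM, which rested on 1 library at 8.71 CPM. Without that library WRC44 averaged 0.257 CPM, the next below KP was WRC27 at 1.08 CPM and the ratio was 10.3. The libraries of neighbouring cultivars overlapped in 38 of 39 pairs in each treatment, and all 40 cultivars kept their side.

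**Figure D1:**
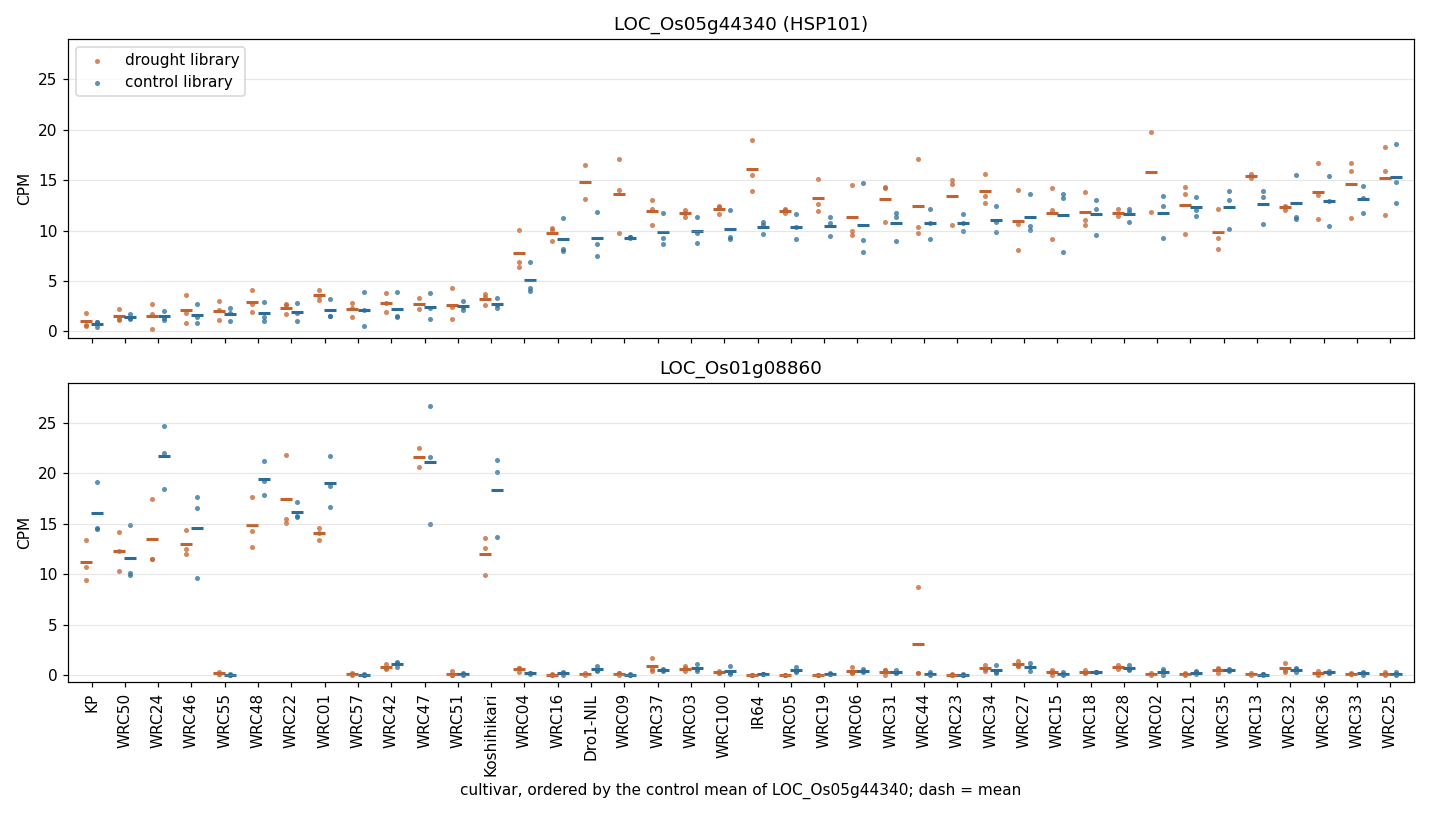
CPM of HSP101 (upper panel) and of the class II gene LOC_Os01g08860 (lower panel) in each library of at least 1 M reads, by cultivar in the order of the HSP101 control mean. Points are libraries, dashes are means, and drought stands left of control within a cultivar. The 9 cultivars with at least 11.2 CPM of LOC_Os01g08860 are among the 13 at the left with low HSP101.

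Of the 13 cultivars low in HSP101, 9 were high in LOC_Os01g08860 and 4 were low in both, and 0 of 40 were high in both. In KP, the lowest for HSP101, LOC_Os01g08860 read 10.7, 9.44 and 13.4 CPM in drought leaves, against 14.5, 14.6 and 19.1 CPM in control leaves. In WRC25, LOC_Os01g08860 averaged 0.135 CPM in drought leaves and 0.137 CPM in control leaves. The sets were seen in the data and are not labelled, so no test was made of them. Reads of all cultivars were aligned to 1 genome build, IRGSP-1.0, which is the genome of the japonica cultivar Nipponbare. Koshihikari and WRC01 were low in HSP101 and high in LOC_Os01g08860, and IR64 was the reverse. Whether a low count came from reads that match that sequence less well or from a low transcript level was not tested.

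**Figure D2:**
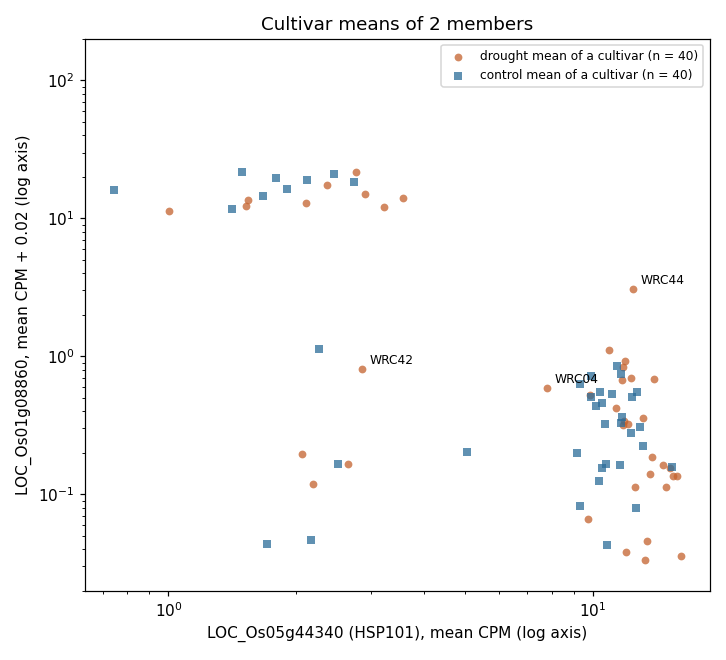
Cultivar means of HSP101 (horizontal, CPM, log axis) against those of LOC_Os01g08860 (vertical, CPM + 0.02, log axis), 1 point per cultivar and treatment, with circles for drought and squares for control. The upper left holds the 9 cultivars with low HSP101 and high LOC_Os01g08860 and the right the 27 with high HSP101. WRC44, raised by 1 drought library, and WRC42 and WRC04, near the steps, are named at their drought means.

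Levels in control leaves differed among cultivars for every gene of the set. With edgeR's quasi-likelihood F test and Benjamini-Hochberg adjustment, 10 of 10 passed, beside 95.1% of all genes tested, so the share is near that of the table. The adjusted p was 2.8e-77 for LOC_Os01g08860, 7.5e-47 for HSP101, 8.5e-29 for LOC_Os01g04360 and 0.00019 for LOC_Os03g14180. Without replicate 1 there were 9 and without replicate 3 there were 8.

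The 3 consecutively numbered class I loci of chromosome 1 were read at few counts, a median of 2 to 5 a library. LOC_Os01g04360 had cultivar means up to 1.88 CPM in drought leaves and 1.82 CPM in control leaves, both in WRC57, where libraries read 1.94, 2.61 and 1.09 CPM in drought leaves, against 2.17, 2.55 and 0.735 CPM in control leaves. LOC_Os01g04370 was highest in WRC55, with 2.34, 3.20 and 1.21 CPM in drought leaves, against 1.09, 2.19 and 1.57 CPM in control leaves. LOC_Os01g04380 was highest in WRC42, with 1.34, 2.82 and 1.86 CPM in drought leaves, against 0.788, 2.55 and 0.672 CPM in control leaves. Thus each of these genes was highest in a different cultivar, the same one in both treatments, and in each of the 3 the drought and control libraries overlapped.

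At the other end, LOC_Os01g04360 was at 0 reads in all drought libraries of WRC48 and in all control libraries of WRC04. The control libraries of WRC48 held 2 to 3 reads of it. LOC_Os01g04380 was at 0 reads in all control libraries of WRC25. The median cultivar means were 0.265 CPM in drought leaves and 0.313 CPM in control leaves for LOC_Os01g04360, 0.386 CPM and 0.271 CPM for LOC_Os01g04370, and 0.135 CPM and 0.133 CPM for LOC_Os01g04380, in the same order of treatments. Class I genes are alike in sequence, and how reads that match more than 1 locus were counted is not given in the sources used here, so the split of reads between these loci is uncertain. Summed over the 3 loci, cultivar means ran from 0.0852 CPM (WRC37) to 3.30 CPM (WRC55) in drought leaves and from 0.147 CPM (WRC34) to 2.49 CPM (WRC57) in control leaves. In control leaves the sum thus covered a 17.01-fold range.

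Of the class I loci of chromosome 3, LOC_Os03g15960 and LOC_Os03g16040 covered a narrower range in control leaves. LOC_Os03g15960 was read in every library, with cultivar means of 5.00 CPM (WRC34) to 16.03 CPM (WRC44) in drought leaves and 4.95 CPM (WRC34) to 12.9 CPM (Dro1-NIL) in control leaves, and medians of 7.93 CPM and 7.98 CPM in the same order. The WRC44 mean rested on replicate 2, and without it WRC44 averaged 9.00 CPM, below the 11.9 CPM of WRC47. Dro1-NIL read 11.7 and 7.88 CPM in drought leaves, against 14.3, 11.6 and 12.9 CPM in control leaves. LOC_Os03g16040 was also read in every library, with means of 1.92 CPM (WRC31) to 7.80 CPM (WRC47) in drought leaves and 1.57 CPM (WRC16) to 6.81 CPM (WRC51) in control leaves. The WRC51 mean rested on 1 library, with 2.35, 5.63 and 4.58 CPM in drought leaves, against 4.32, 2.52 and 13.6 CPM in control leaves.

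LOC_Os03g16020 had median cultivar means of 0.598 CPM in drought leaves and 0.555 CPM in control leaves. Its control means ran from 0.127 CPM (WRC25) to 1.63 CPM (WRC51). Its highest control mean was in WRC51, where it read 1.39, 0.797 and 1.25 CPM in drought leaves, against 1.55, 1.04 and 2.29 CPM in control leaves. LOC_Os03g16030 had medians of 0.295 CPM in drought leaves and 0.230 CPM in control leaves. Its highest means were both in WRC44, at 7.91 CPM in drought leaves and 0.739 CPM in control leaves. Its lowest control mean was 0.0283 CPM in WRC18, near the limit of detection. Summed with LOC_Os03g16040, the consecutively numbered loci ran from 2.42 CPM (WRC16) to 19.7 CPM (WRC44) in drought leaves and from 2.12 CPM (WRC16) to 9.09 CPM (WRC51) in control leaves. Both drought values of WRC44 rested on replicate 2: without it the mean of LOC_Os03g16030 was 0.983 CPM, still the highest, and the sum was 4.95 CPM, below the 9.73 CPM of WRC47.

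LOC_Os03g14180, the plastid gene, was close to the limit of detection. It had 0 reads in 69 of these drought libraries and in 70 of the 120 control libraries. Its highest mean in drought leaves was 4.23 CPM in WRC44, and its highest in control leaves was 0.777 CPM in Dro1-NIL. Without replicate 2 WRC44 averaged 0.0437 CPM in drought leaves, and the highest was WRC34 at 0.359 CPM. Dro1-NIL read 0 and 0 CPM in drought leaves, against 1.20, 0.453 and 0.679 CPM in control leaves, from 5 to 17 reads. A fall of this gene, or a rise of a few reads, was therefore not detectable at this depth in most cultivars. A rise to the 12.6 CPM of WRC44 drought replicate 2 would have been read, but outside WRC44 no drought mean was above 0.359 CPM.

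**Figure D3:**
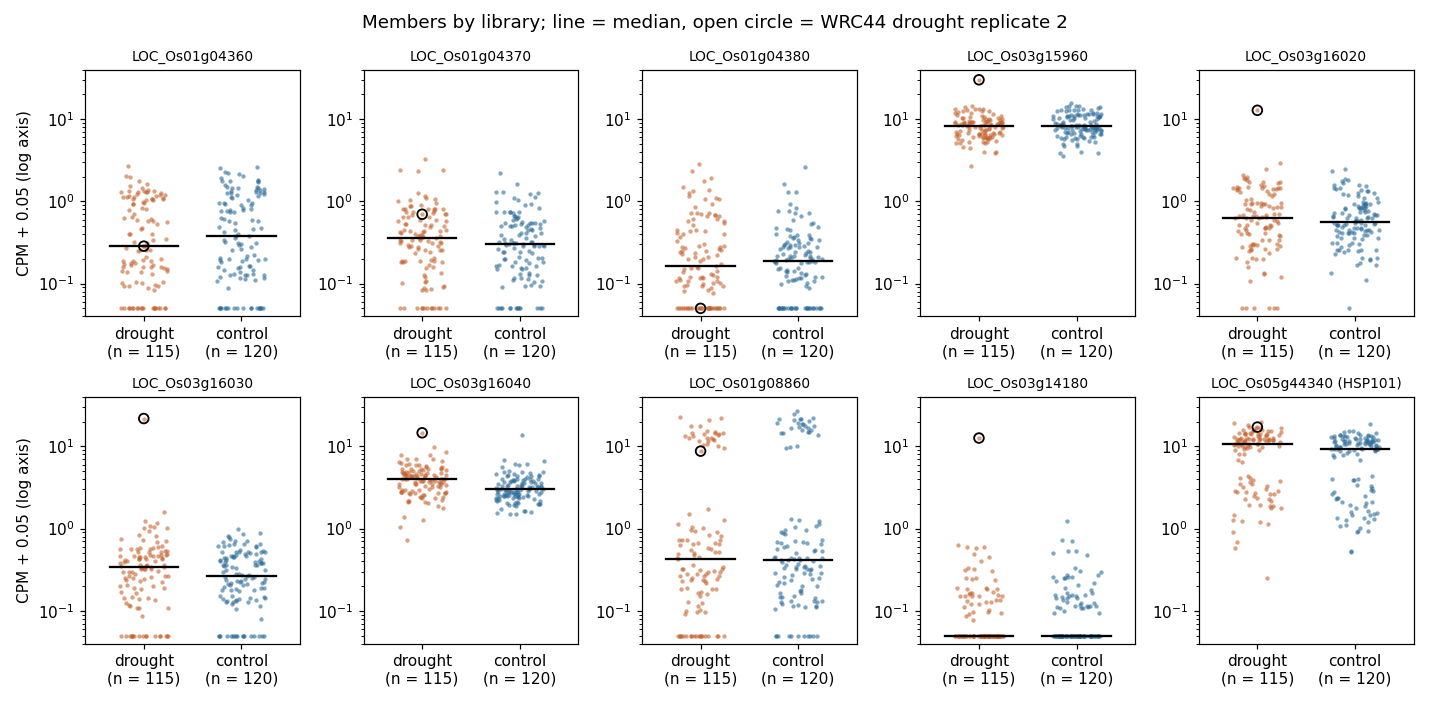
CPM + 0.05 (log axis) of each gene in the drought libraries (left) and control libraries (right) of at least 1 M reads in each panel. Points are libraries, lines are medians, and the open circle is WRC44 drought replicate 2. HSP101 and LOC_Os01g08860 each fall into a high and a low cloud in both treatments.

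Drought was then compared with control over all 40 cultivars, with cultivar as a term. The fit gives the average shift of each gene and does not test whether the cultivars shifted alike. By edgeR's quasi-likelihood F test at an adjusted p under 0.05, 4 of the 10 genes rose and 0 fell. Of all genes tested 44.4% passed and 21.7% passed as higher, so a share of 4 in 10 passing is near the background. None of the 10 reached a fold of 2 as well, which 1.33% of all genes did, and the tested genes had a median log2 change of -0.00136.

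LOC_Os03g16040 averaged 4.10 ± 1.39 CPM over cultivars in drought leaves and 3.24 ± 1.02 CPM in control leaves (SD, n = 40 cultivars each). Its log2 change was 0.34 ± 0.059 (SE), with an edgeR adjusted p of 4.9e-07. Within single replicate numbers the change was 0.33, 0.39 and 0.26 for numbers 1, 2 and 3, and it did not pass with number 3 only (adjusted p = 0.11). It was higher in drought in 32 of 40 cultivars, and 7.72% of tested genes were higher in as many. In 12 cultivars every drought library was above every control library, and in 0 was it the reverse. Over all pairs of gene and cultivar, 6.86% were separated in that way upward. WRC04 had the largest rise of LOC_Os03g16040, with 6.98, 5.22 and 5.03 CPM in drought leaves, against 3.24, 2.16 and 2.12 CPM in control leaves. WRC32 was another of the 12, with 5.50, 4.37 and 4.02 CPM in drought leaves, against 3.00, 2.32 and 2.36 CPM in control leaves.

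HSP101 averaged 9.34 ± 5.17 CPM in drought leaves and 8.05 ± 4.57 CPM in control leaves (SD, n = 40 cultivars each), an SD that holds both sides of the step. Its log2 change was 0.23 ± 0.049 (SE), with an edgeR adjusted p of 3.0e-05. It was higher in drought in 36 of 40 cultivars, and 2.17% of tested genes were higher in as many. The drought libraries were all above the control libraries in 8 cultivars, Dro1-NIL, IR64, WRC03, WRC05, WRC09, WRC13, WRC19 and WRC34, and below them in 0. Over all pairs of gene and cultivar 6.86% were separated upward. Dro1-NIL and WRC13 rested on 2 drought libraries each. Without replicate 2 the log2 change of HSP101 was 0.12, with an edgeR adjusted p of 0.12, so the call rested in part on the replicate 2 libraries. Within single replicate numbers the change was 0.11, 0.46 and 0.14 for numbers 1, 2 and 3, and it passed with number 2 only (adjusted p = 1.5e-05), not with number 1 (0.39) or 3 (0.20).

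HSP101 was mostly higher in drought on both sides of its step. Among the 27 high cultivars 23 were higher in drought, with a median ratio of drought to control of 1.16. Among the 13 low cultivars 13 were higher, with a median ratio of 1.21 and a lowest of 1.01. These means include replicate 2, the only replicate number within which HSP101 passed. KP, for instance, was higher only through its replicate 2 drought library. Cultivar values of the log2 change ran from -0.30 in WRC35 to 0.88 in WRC01. WRC01 read 4.13, 3.46 and 3.14 CPM in drought leaves, against 1.53, 1.57 and 3.25 CPM in control leaves, so even there 1 control library lay among the drought libraries. HSP101 and LOC_Os03g16040 were both separated upward in IR64 and WRC09. That is 25% of the 8 cultivars of HSP101, while LOC_Os03g16040 was separated in 12 of all 40. It is 16.7% of the 12 cultivars of LOC_Os03g16040, while HSP101 was separated in 8 of all 40. Neither share was above that over all cultivars. In WRC09, 110 genes were read in 1 treatment only.

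The other 2 genes that passed were read at few counts. LOC_Os03g16030 had a log2 change of 0.42 ± 0.15 (SE), with an adjusted p of 0.016 by the same edgeR test. Without WRC44 drought replicate 2 the change was 0.30 and the adjusted p 0.057, so the call was lost. LOC_Os01g04380 had a log2 change of 0.36 ± 0.15 (SE), with an adjusted p of 0.043, which was lost when replicate 1 (adjusted p = 0.33) or replicate 3 (adjusted p = 0.17) was left out. It was higher in drought in 22 of 40 cultivars, as were at least 35.02% of tested genes in as many.

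The remaining 6 genes did not pass. By the same edgeR test, the log2 change was -0.27 for LOC_Os01g04360 (adjusted p = 0.064), 0.20 for LOC_Os01g04370 (adjusted p = 0.27) and 0.18 for LOC_Os03g16020 (adjusted p = 0.22). It was -0.03 for LOC_Os03g15960 (adjusted p = 0.61) and -0.05 for LOC_Os01g08860 (adjusted p = 0.75), and with another scaling of the libraries (RLE) both were 0.02. For LOC_Os03g14180 it was 0.38 (adjusted p = 0.27). LOC_Os01g04360 was the gene nearest to passing as lower, and it passed at -0.30 without the 3 libraries that hold genes of a neighbouring cultivar number (adjusted p = 0.035). LOC_Os03g15960 was higher in 20 cultivars and lower in 20. The value of LOC_Os03g14180 had an SE of 0.28, so its direction is uncertain.

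Each cultivar was also tested for drought by itself, with the spread estimated over all groups together. Of the 400 pairs of gene and cultivar 4 were called, at an edgeR adjusted p under 0.05 and a fold of at least 2, beside 0.615% of the pairs over all genes. All 4 were in WRC44, where 7 genes were called in the whole table, or 0.0247% of those tested. An unadjusted p under 0.05 was found for 37 of the 400 pairs, or 9.25%, against 8.46% over all genes. LOC_Os03g15960 in WRC09 came next, with 6.64 ± 1.67 CPM in drought leaves against 11.3 ± 2.51 CPM in control leaves (SD, n = 3 each), a log2 change of -0.82 and an edgeR adjusted p of 0.050. It missed both the threshold and the fold, and without replicate 3 it was called, at -1.08 (adjusted p = 0.040). With RLE scaling a call outside WRC44 was gained, LOC_Os03g16040 in WRC32 at a log2 change of 1.22 (adjusted p = 0.030). WRC09 is the cultivar whose treatments differ in which genes are read at all.

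**Figure D4:**
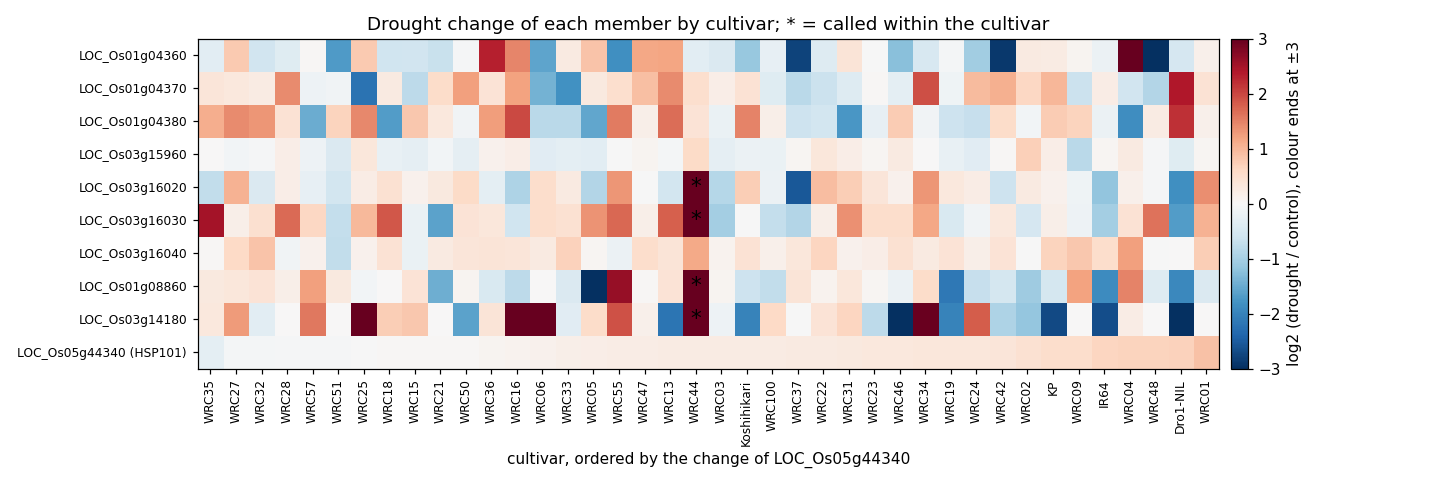
Fitted log2 change of drought over control for each gene (rows) in each of the 40 cultivars (columns, ordered by the change of HSP101). Red is higher and blue lower in drought, and a star marks a called change. The 4 stars are all in WRC44, the deep colours elsewhere in the rows of the chromosome 1 loci, LOC_Os01g08860 and LOC_Os03g14180 rest on few reads, and HSP101 runs from -0.30 to 0.88.

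In WRC44 the 4 calls rested on drought replicate 2. LOC_Os03g16030 read 0.962, 21.8 and 1.00 CPM in drought leaves, against 0.568, 0.695 and 0.954 CPM in control leaves. LOC_Os03g16020 read 0.656, 12.8 and 0.251 CPM in drought leaves, against 0.757, 0.491 and 0.367 CPM in control leaves. Apart from replicate 2, drought and control libraries of LOC_Os03g16020 overlapped, and those of LOC_Os03g16030 lay next to each other, with the lowest drought library just above the highest control library. LOC_Os01g08860 read 0.262, 8.71 and 0.251 CPM in drought leaves, against 0.0631, 0.0818 and 0.293 CPM in control leaves. LOC_Os03g14180 read 0.0874, 12.6 and 0 CPM in drought leaves, against 0, 0 and 0.220 CPM in control leaves. The class II and the plastid gene were thus at a few reads in the other 5 libraries, and replicate 2 held 148 and 214 reads of them.

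The edgeR log2 changes were 4.595 for LOC_Os01g08860 (adjusted p = 1.4e-06), 6.02 for LOC_Os03g14180 (adjusted p = 0.010), 3.13 for LOC_Os03g16020 (adjusted p = 0.010) and 3.45 for LOC_Os03g16030 (adjusted p = 0.012). Within WRC44, replicate 2 stood above the next highest library by 29.7-fold for LOC_Os01g08860, 57.2-fold for LOC_Os03g14180, 16.9-fold for LOC_Os03g16020 and 21.7-fold for LOC_Os03g16030. Without replicate 2 their log2 changes were 0.93, 0.22, -0.00096 and 0.42 in the same order, each with an adjusted p of 1, and 0 genes of 28249 were called in WRC44. The library itself was of ordinary depth, at 18.6 M reads, against 25.0 and 4.45 M in the other drought libraries of WRC44 and 14.8 to 27.9 M in its control libraries.

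The other genes of the set were less far apart or not high in that library. LOC_Os03g15960 read 8.96, 30.1 and 9.04 CPM in drought leaves, against 12.9, 7.77 and 12.5 CPM in control leaves. LOC_Os03g16040 read 2.75, 14.6 and 4.27 CPM in drought leaves, against 4.604, 2.82 and 2.71 CPM in control leaves. HSP101 read 10.4, 17.1 and 9.80 CPM in drought leaves, against 12.2, 9.16 and 10.8 CPM in control leaves. For each of these 3 genes, replicate 2 was again the highest library of WRC44. The chromosome 1 loci LOC_Os01g04360, LOC_Os01g04370 and LOC_Os01g04380 read 0.235, 0.647 and 0 CPM in it, and none of them was highest there.

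No other library of the series held a gene of the set with at least 10 reads and a level 5-fold above every other library of its cultivar. Over all tested genes, 54 (0.191%) stood so in WRC44 drought replicate 2, which ranked 17 of 235 libraries, against a median of 4 genes and a highest count of 516 in WRC36 drought replicate 1. Besides the 4 genes, WRC44 had 3 calls, named here after their values were seen. LOC_Os03g16920 was higher, at a log2 change of 3.56, while LOC_Os04g23040 and LOC_Os07g01910 were lower, at -6.62 and -4.26.

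**Figure D5:**
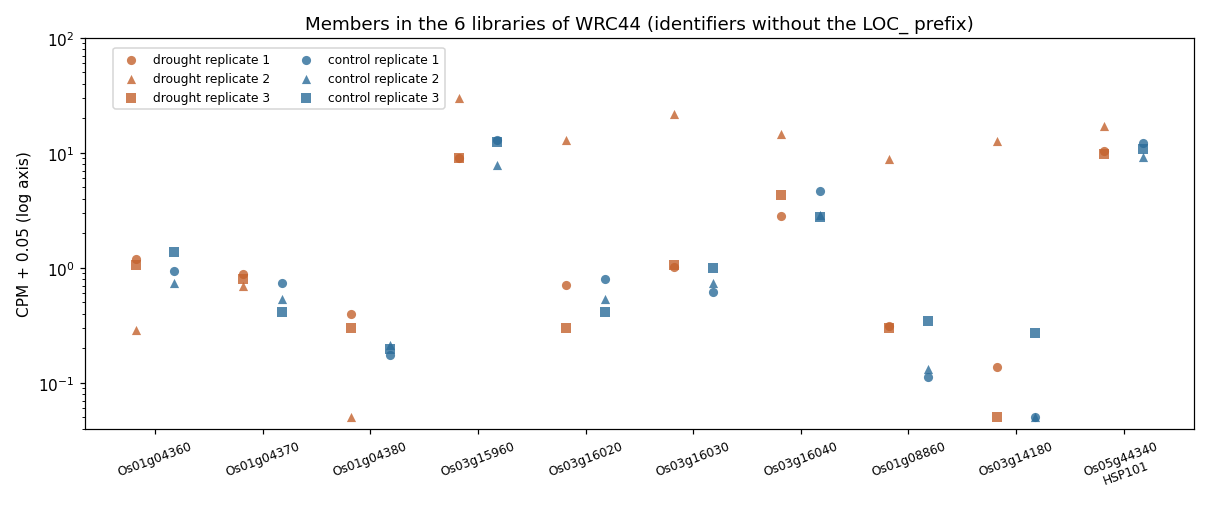
CPM + 0.05 (log axis) of the 10 genes in the 3 drought libraries (left of each pair) and 3 control libraries (right) of WRC44, with the marker shape giving the replicate number. The drought triangle, replicate 2, lies far above the other 5 libraries for LOC_Os03g16020, LOC_Os03g16030, LOC_Os01g08860 and LOC_Os03g14180 and at the low end for LOC_Os01g04360 and LOC_Os01g04380.

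The test of whether the drought response differs among the 40 cultivars passed for 1 of 10 genes, LOC_Os01g08860, with an edgeR adjusted p of 0.0024, beside 3.87% of all genes tested. Without WRC44 drought replicate 2 its adjusted p was 0.34, and 0 of the 10 passed, beside 4.2% of all genes. HSP101 had an adjusted p of 1 and an unadjusted p of 0.98. For 3 of 10 genes the unadjusted p was under 0.05, against 13.2% of all genes. A p that misses the threshold does not show that the cultivars respond alike.

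Among the 9 cultivars with high LOC_Os01g08860, its mean was lower in drought in 6 and higher in 3. Their median was 13.5 CPM in drought leaves against 18.4 CPM in control leaves, and the ratio of drought to control ran from 0.620 to 1.08 with a median of 0.767. In KP, Koshihikari, WRC01, WRC24 and WRC48 every drought library was below every control library. Koshihikari read 9.96, 12.6 and 13.6 CPM in drought leaves, against 13.7, 21.3 and 20.1 CPM in control leaves. WRC48 averaged 14.9 ± 2.53 CPM in drought leaves and 19.4 ± 1.66 CPM in control leaves (SD, n = 3 each). Over all pairs of gene and cultivar 7.24% were separated downward, and none of these 9 cultivars was called for the gene.

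In the low cultivars the same gene moved on a handful of reads. It was separated downward in Dro1-NIL, IR64, WRC05 and WRC19 and upward in WRC04 and WRC55, all at means under 1 CPM. WRC05 read 0, 0.0537 and 0 CPM in drought leaves, against 0.366, 0.856 and 0.363 CPM in control leaves, a single drought read against 4 to 10 in each control library. The edgeR log2 change in WRC05 was -3.96, and it was called once WRC44 drought replicate 2 was left out of the model (adjusted p = 0.044).

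Dro1-NIL and IR64 were compared within each treatment, to set the line beside the background it is taken to share. By edgeR, 0 of 10 genes were called in drought leaves, beside 0.099% of all genes, and 0 of 10 in control leaves, beside 0.131%. In drought leaves 0 of 10 had an unadjusted p under 0.05, against 3.17% of all genes. In control leaves 2 of 10 did, or 20%, against 3.37% of all genes. These 2 were LOC_Os01g08860 and LOC_Os03g14180. LOC_Os01g08860 was at 0.613 ± 0.277 CPM in Dro1-NIL and 0.105 ± 0.0228 CPM in IR64 (SD, n = 3 each, edgeR adjusted p = 0.60). LOC_Os03g14180 averaged 0.777 CPM in Dro1-NIL, against 0, 0.128 and 0 CPM in the IR64 libraries (edgeR adjusted p = 0.56). HSP101 averaged 14.8 ± 2.38 CPM in Dro1-NIL (SD, n = 2) and 16.1 ± 2.57 CPM in IR64 (SD, n = 3) in drought leaves. In control leaves it averaged 9.30 ± 2.24 CPM in Dro1-NIL and 10.3 ± 0.596 CPM in IR64 (SD, n = 3 each).

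The genes most like HSP101 over the 80 cultivar and treatment means, among 14617 with a mean of at least 5 CPM, were LOC_Os05g46040 (Spearman's rho = 0.70), LOC_Os03g37470 (0.67) and LOC_Os11g37740 (0.67), named by identifier only. The points share libraries and cultivars, and they fall into the high and low sets of HSP101, so the values describe likeness and carry no test. LOC_Os11g37740 ran from 0 to 23.2 CPM in drought leaves, with a median of 12.3 CPM, and from 0 to 21.4 CPM in control leaves, with a median of 12.02 CPM. LOC_Os05g46040 ran from 33.1 to 96.6 CPM in drought leaves and from 29.5 to 101.3 CPM in control leaves, a narrower relative range than that of HSP101.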

How the data were processed

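Leaf mRNA was sequenced in 119 drought and 120 control libraries. The authors deposited raw read counts per gene model, made with STAR, featureCounts 2.0.0 and the build IRGSP-1.0, as the submitters' processing notes list them. The annotation release, the strand setting and the treatment of reads with several positions are not given in the sources used here. Each column was matched to its sample by the library name, with 0 columns unmatched. The genes and lists were chosen with earlier results of these data known.

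Counts were analysed with edgeR 4.0.16 (R 4.3.3): filterByExpr with a minimum count of 10, TMM library sizes, and quasi-likelihood F tests with a trended dispersion estimated on 2000 genes. The fits covered the whole table, and p values were adjusted by Benjamini-Hochberg over all genes tested, at 0.05. A call also needed a fold of at least 2. SEs were obtained from the log2 change and its F. The procedure was tested on simulated data with 200 changed genes. Steps are the largest ratio of neighbouring cultivar means with the lower at 1 CPM or more, and limits for 0 reads use 3 reads and cover counting error only. limma 3.58.1, with a prior count of 2, and DESeq2 1.42.0 served as alternatives. They also covered RLE scaling, no filter, left-out replicates or libraries, and the replicate number as a block or alone. Named genes are the 10 and the 3 most like HSP101, and libraries are given where a gene was called and in its highest control cultivar. Further libraries and the 3 other calls of WRC44 were chosen after their values were seen. Lists of other heat shock genes and of leaf markers were not analysed here, since the reference at hand holds 0 of the table's identifiers. No sequence is printed for the same reason.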

Additional observations from a re-analysis of the deposited data

Results flagged for a closer look

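The drought response of LOC_Os01g08860, the class II gene, differed among the 40 cultivars by edgeR's test of all interaction terms together, with an adjusted p of 0.0024. The cultivar furthest up was WRC44, at a log2 change of 4.595, and the one furthest down was WRC05, at -3.96. Without WRC44 drought replicate 2, chosen for leaving out after its values were seen, the adjusted p was 0.34. With replicate 1, 2 or 3 left out of every group it was 0.17, 0.22 and 0.28.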

How the results depend on the processing

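The count of genes passing over all cultivars was 4, and it ran from 2 to 3 with a replicate left out. It was 0 to 3 within single replicate numbers (2 with number 2 only, 0 with number 3 only, where 26.3% of all genes passed), 3 without a filter, 3 on counts summed per cultivar by edgeR or DESeq2, 3 without WRC44 drought replicate 2, 4 without the WRC09 libraries and 5 without the 3 libraries that hold genes of another cultivar. The main fits did not take the numbers to pair the libraries. Not every pair with the same number deviated together, but an effect of the number does not require that. Pairs with the same number were still more alike than others. Their median correlation was 0.094 and 48.7% were over 0.1, against -0.042 and 25.7% for different numbers. With the replicate number as a block the count was 5, and with pairs as a block in limma it was 2, with LOC_Os01g04360 lower and HSP101 higher. The single genes gave 132 values on the same side, 19 that no longer passed, 3 that newly passed (LOC_Os01g04360 as lower, under either block and without the 3 libraries) and 5 reversed, each of a gene that did not pass. Reversed were LOC_Os01g04370 (-0.12, number 3 only), LOC_Os03g15960 (0.022 with RLE, 0.041 with number 2 only), LOC_Os03g16020 (-0.018, pairs as a block) and LOC_Os01g08860 (0.019 with RLE). LOC_Os03g16040 stopped passing with pairs as a block and with number 3 only, HSP101 without replicate 2 and with number 1 or 3 only. RLE moved the median gene by 0.057. The 4 calls within cultivars became 0 to 2 with a replicate left out, 1 without WRC44 drought replicate 2, 0 with each cultivar fitted alone and 5 with RLE (LOC_Os03g16040 in WRC32 added). The interaction count of 1 became 0 with any replicate left out and 0 without that library. Control differences held for 8 to 10 genes and the Dro1-NIL comparison for 0 under each alternative run. Within a cultivar, few reads a library limit the precision for the chromosome 1 loci, LOC_Os03g16020, LOC_Os03g16030 and LOC_Os03g14180. The causes were not tested.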
